A study of Canis lupus familiaris with 39 samples.

Results

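The cerebrum, called brain here as in the sample names, was compared directly with the pancreas in healthy dogs. The comparison used 7 of the 39 arrays of a survey of 10 canine organs, 4 from brain and 3 from pancreas, and covered all 42860 probesets of the Affymetrix Canine Version 2.0 array. A further list held every probeset whose mean was at least 4-fold above the mean of the 8 other organ means in brain and in pancreas alike, and 44 of the 42860 probesets met that condition. The other organs were heart, jejunum, kidney, liver, lung, lymph node, skeletal muscle and spleen. All tissue was labelled normal, with no treatment and no engineered allele, and came from 4 dogs, beagles and mixed-breed animals of either sex between puppyhood and adulthood. The labels give no age, sex or breed for a single array, and no dog. The fourth pancreas array was left out by the study, in part because it lacked signal for INS, SPINK1, CELA1 and CPB1, so the levels of these genes in the other pancreas arrays were one reason why those arrays were kept.

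Brain and pancreas are both secretory, by different means. Acinar cells, the bulk of the pancreas, make digestive enzymes on the rough endoplasmic reticulum and store them as zymogens in granules that empty into ducts. Neurons release transmitters from synaptic vesicles, and both neurons and the endocrine cells of the pancreatic islets keep peptides in dense core granules, whose cargo is trimmed by prohormone convertases. A piece of either organ holds many cell types, and in such bulk samples fewer cells of a type and less RNA per cell cannot be told apart.

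Values are log2 RMA expression values, so that a difference of 1 is a change of 2-fold. The array medians ranged from 3.98 to 4.02 in brain and from 4.07 to 4.11 in pancreas, and a value near 4 is the level of most probesets. Arrays of an organ correlated with each other across probesets at r = 0.952 to 0.982 in brain and 0.944 to 0.964 in pancreas, against 0.705 to 0.752 between the organs. The number of arrays limits the precision. A probeset was called different at a false discovery rate of 0.001 by limma, fitted on all 39 arrays. The SE, interval and p-value of a gene thus rest on its spread within all 10 organs, not within brain and pancreas alone.

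Brain was higher at 5582 probesets (13.0% of all) and pancreas at 5158 (12.0%). The balance changed with the size of the difference. Among calls of at least 4-fold, brain was higher at 2850 probesets (6.65%) and pancreas at 762 (1.78%). Most of the calls in favour of pancreas were small and dim, since 3318 of the 5158 were below 2-fold and 3281 had a mean under 5 in both organs, against 598 and 566 of the 5582 in favour of brain. The median difference over all probesets was -0.11 on the log2 scale. The arrays of the organs did not overlap at 50.1% of all probesets, so the absence of overlap alone says little about a gene. The split depended on scaling. With brain higher in 52.0% of calls as deposited, the share was 31.4% after each array was shifted to an equal median of 15 housekeeping genes and 63.6% after a shift to an equal median of all probesets. Among 4-fold calls the shares were 78.9%, 44.6% and 81.8%. The housekeeping shift moved the median of all probesets by -0.84 and the other shift by 0.10, and the values that follow are those before any shift.

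A difference between a pair of organs can come from either side. Of the 2850 probesets that were 4-fold higher in brain, 1513 had a brain mean at least 4-fold above the mean of the 8 other organs, 448 had a pancreas mean at least 4-fold below it, 76 had both and 965 had neither. Of the 762 that were 4-fold higher in pancreas, 388 had a pancreas mean at least 4-fold above the other organs, 146 had a brain mean at least 4-fold below, 29 had both and 257 had neither. FH, the fumarate hydratase of the citric acid cycle, was low in pancreas. It was at 9.19 in brain and 4.90 in pancreas, with pancreas 4.50 below the mean of the 8 others and brain only 0.20 below it. FABP3, a fatty acid binding protein of muscle and brain, had a difference of 2.92, with pancreas 2.85 below the others. ALDH1A1, an enzyme that makes retinoic acid, was low in brain. It was at 5.32 in brain and 10.56 in pancreas, and brain was 4.17 below the others. For FABP5 brain was 3.67 below the others, and for the membrane-binding annexin ANXA2 2.69 below. These 5 genes were chosen after their values were seen.

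**Figure D1:**
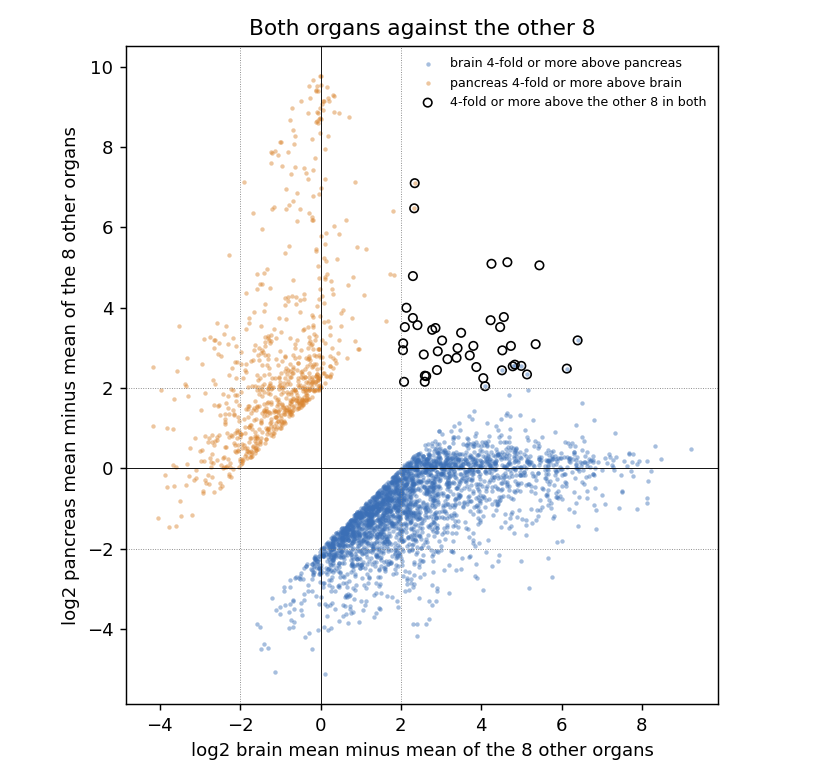
Position of brain (horizontal axis) and pancreas (vertical axis) against the mean of the 8 other organs, in log2 units, for probesets called with at least a 4-fold difference between brain and pancreas (filled points, coloured by the higher organ) and for the 44 probesets at least 4-fold above the others in both (open circles). Dotted lines mark 4-fold above or below the others; the blue cloud reaches below the lower dotted line, where the pancreas is at least 4-fold below the others, at 448 probesets of which 76 also have brain at least 4-fold above.

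SNAP25, INS and SST were the markers of the comparison. SNAP25, a membrane protein that fuses synaptic vesicles, was at 12.70, 12.63, 12.84 and 13.00 in the brain arrays and at 4.13, 4.08 and 3.95 in the pancreas arrays. INS, which encodes insulin, was at 3.25, 3.23, 3.24 and 3.31 in brain and at 10.37, 10.34 and 9.98 in pancreas. Each was thus high in every array of its organ and at the floor of the array in the other. The differences were 8.74 for SNAP25 (SE 0.37, adjusted p = 4.0e-19) and -6.97 for INS (SE 0.08, adjusted p = 1.1e-34). Where an organ lies at the floor, as for these genes and for most of the largest differences that follow, the difference is a lower limit on the change, and an order among such genes is that of these values alone.

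SST, which encodes somatostatin, a peptide of cortical interneurons and of islet delta cells, behaved otherwise. It was at 9.19, 10.28, 9.66 and 9.11 in brain and at 8.93, 9.48 and 9.09 in pancreas. The arrays of the organs overlapped, and both organs lay above jejunum, the next organ, at 7.59. The brain mean was 1.31-fold above the pancreas mean, with a 95% interval from 1.04-fold to 1.67-fold. SST was not called (difference 0.39, adjusted p = 0.054 in limma). That interval pools the spread of all organs, and the SD was 0.54 in brain and 0.29 in pancreas. The SD was 0.03 to 0.23 in the 8 other organs, so the interval is too narrow for brain and pancreas alone. Under the housekeeping shift the difference was -0.44.

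**Figure D2:**
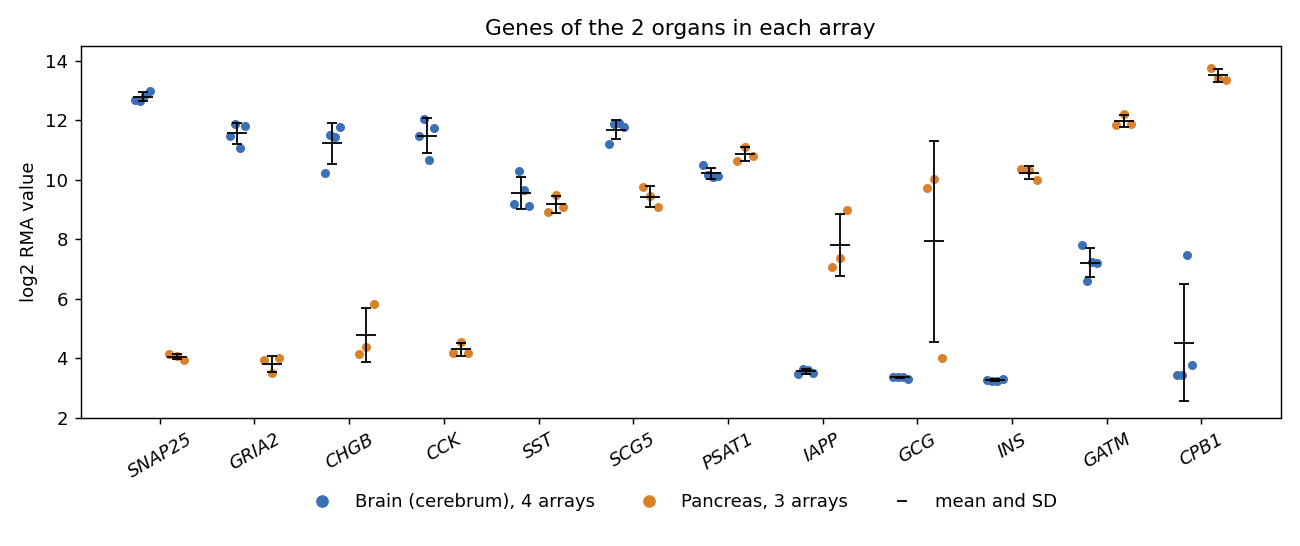
Log2 RMA values of 12 genes in the 4 brain arrays (blue) and the 3 pancreas arrays (orange), with the mean and SD of each organ; levels should be compared within a gene and not between genes. SST overlaps between the organs and PSAT1 lies slightly higher in the pancreas arrays. GCG is at 4.02 in pancreas replicate 3 and CPB1 at 7.46 in brain replicate 3.

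Digestive enzymes made the largest differences of the whole comparison. All 18 measured genes of the acinar list were called higher in pancreas, with a median difference of -9.09. Of the 15115 genes, each by its brightest probeset, 11.3% were called in that direction and 15.0% in the other. These shares are the background for the counts of every list below. By the naming rule the 10 genes furthest above brain were SPINK1, GP2, CPB1, CUZD1, PLA2G1B, CEL, CPA1, CTRB2, TFF2 and CELA1. SPINK1, the trypsin inhibitor that guards the acinar cell, was at 13.04, 12.87 and 12.77 in pancreas and between 2.87 and 3.31 in brain, a difference of -9.85 (SE 0.31, adjusted p = 9.8e-23). CELA1, an elastase, closed the 10 with -9.48 (SE 0.68, adjusted p = 3.9e-13). The smallest difference on the list was that of ERP27, a chaperone of the acinar endoplasmic reticulum, at -7.87. Several of these genes have close relatives, such as the chymotrypsins and the pancreatic lipases, whose probes may share signal.

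Other secreted products of the canine pancreas followed, named here after their values were seen. CBLIF, which encodes the gastric intrinsic factor that carries vitamin B12, was at 12.41, 12.72 and 11.60 in pancreas and at 3.47 to 3.78 in brain, a difference of -8.69. TCN1, another vitamin B12 carrier, had a difference of -8.41 and the secreted nuclease DNASE1 of -8.85. None of these genes had overlapping arrays, and all were highest in pancreas among the 10 organs.

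The brain arrays were not alike for the acinar list. Its mean over 18 genes was 3.69, 3.69 and 3.76 in brain replicates 1, 2 and 4, and 5.17 in replicate 3. CPB1, a carboxypeptidase, was at 7.46 in that array and at 3.40 to 3.77 in the other brain arrays by its brightest probeset. The list mean was between 13.09 and 13.18 in pancreas, and among the other organs it was 6.07, 6.77 and 8.01 in skeletal muscle replicates 1, 3 and 4 and no higher than 5.15 elsewhere. The part of this signal in the values of brain replicate 3 was not tested. Without that array the median difference of the list was -9.59, and all 18 genes were called.

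The machinery that loads secreted proteins into the endoplasmic reticulum was high in pancreas as well. Of 55 measured members, 44 were called higher in pancreas and 1 in brain, with a median difference of -1.98. DNAJC3, a co-chaperone that also checks the stress kinase of this compartment, was at 9.62, 9.70 and 10.42 in pancreas and at 4.39 to 4.65 in brain, a difference of -5.42 (SE 0.30, adjusted p = 3.7e-16). LMAN1, a cargo receptor on the way to the Golgi, had -4.37 and the translocon protein TRAM1 had -3.90. SEC62, a translocon subunit, was the member called higher in brain, by 0.90, and lost that call when any of the 7 arrays was left out (adjusted p from 0.0011 to 0.0054). Brain lay below the 8 other organs on this list (median -0.69) and pancreas above (median 1.22), so the gap was not that of pancreas alone. CANX, the chaperone calnexin, differed by 0.01, with a 95% interval from -0.47 to 0.49, by its brightest probeset, while 2 of its other probesets were called higher in pancreas.

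Transcription factors of acinar cells and of gut-derived organs differed by less, with a median of -0.93. Of 18 genes, 13 were called higher in pancreas (72.2%, against 11.3% of all genes). Without pancreas replicate 1 the count was 8, and in a fit of the 7 brain and pancreas arrays alone it was 3. NR5A2, a nuclear receptor that sustains acinar genes, was at 9.99, 10.26 and 9.36 in pancreas and at 3.38 to 3.54 in brain (difference -6.43, SE 0.27, adjusted p = 3.5e-19). MECOM had a difference of -4.44, and RBPJL, the acinar subunit of the PTF1 complex, of -3.80. RBPJL varied among the pancreas arrays, at 7.82, 8.41 and 6.30, and its difference was -4.41 without the last of them. Of the list, 12 genes had a mean under 5 in both organs.

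Epithelial genes set the organs apart too. Of 18 duct and simple epithelium genes, 10 were called higher in pancreas, with a median of -1.01. The keratins KRT18 and KRT8 had differences of -6.69 and -5.38, and the adhesion molecule EPCAM of -5.38. Their brain means were 4.17, 2.54 and 3.34 below the mean of the 8 other organs, which hold epithelium in several cases. CA2 and MUC1 were higher in brain, by 1.91 and 0.72, and were not called. SPP1, which encodes osteopontin, had a difference of 2.46 (10.45 against 7.98) and was not called (adjusted p = 0.0015), but was without brain replicate 2 (2.93, adjusted p = 0.00035).

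Of the 6 islet hormone genes measured, INS, GCG and IAPP were called higher in pancreas, while SST, GHRL and NPY were not called. IAPP, the amyloid peptide released with insulin, was at 7.05, 7.37 and 9.0 in pancreas and at 3.45 to 3.64 in brain, a difference of -4.25 (SE 0.22, adjusted p = 1.0e-16) that was -3.66 without pancreas replicate 3. GCG, which encodes glucagon, was at 9.72 and 10.03 in pancreas replicates 1 and 2 and at 4.02 in replicate 3, with brain at 3.31 to 3.37. Pancreas replicate 3 thus had the highest IAPP, an INS of 9.98 and a GCG near the floor. The GCG difference of -4.57 (SE 0.75, adjusted p = 6.9e-06) was -6.53 without that array and -3.67 or -3.52 without replicate 1 or 2, and in a fit of the 7 arrays alone it was not called (adjusted p = 0.037). Of 19 genes for glucose sensing and islet identity, 4 were called higher in pancreas (21.1%, against 11.3% of all genes), and 0 in the fit of the 7 arrays alone. They included G6PC2, a glucose phosphatase of beta cells, by 2.06, and PDX1, the islet and duodenal homeobox factor, by 0.53. On this list 16 genes had a mean under 5 in both organs.

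Amino acid supply and creatine synthesis divided between the organs. Of 33 measured genes, 11 were called higher in pancreas (33.3%, against 11.3% of all genes) and 2 in brain (6.06%, against 15.0%). The median was -0.50. GATM, which makes the creatine precursor guanidinoacetate, was at 11.84, 12.21 and 11.86 in pancreas and between 6.60 and 7.80 in brain, a difference of -4.76 (SE 0.49, adjusted p = 1.5e-09). GAMT, the next enzyme of that pathway, had -4.69, and SLC38A5, a transporter of glutamine and other amino acids, had -4.60. The creatine importer SLC6A8 went the other way, at 9.33, 8.08, 8.09 and 8.11 in brain and 4.49, 5.47 and 4.91 in pancreas (difference 3.45, SE 0.42, adjusted p = 3.6e-08). The alanyl-tRNA synthetase AARS1 was the other gene called higher in brain, by 1.89. Both creatine-making enzymes were high in the organ where the importer was low.

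Ribosomal protein genes were called higher in pancreas at 12 of 51 members (23.5%, against 11.3% of all genes). In brain 2 were called higher (3.92%, against 15.0%), and the median was -0.42. The count in pancreas was 4 without pancreas replicate 3, 6 without brain replicate 4 and 7 without brain replicate 2 or pancreas replicate 2. In the fit of the 7 arrays alone it was 1. RPL10 had the largest difference at -1.93, and RPS10 the largest in favour of brain at 1.23. Signal of this family may mix gene copies and pseudogenes.

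**Figure D3:**
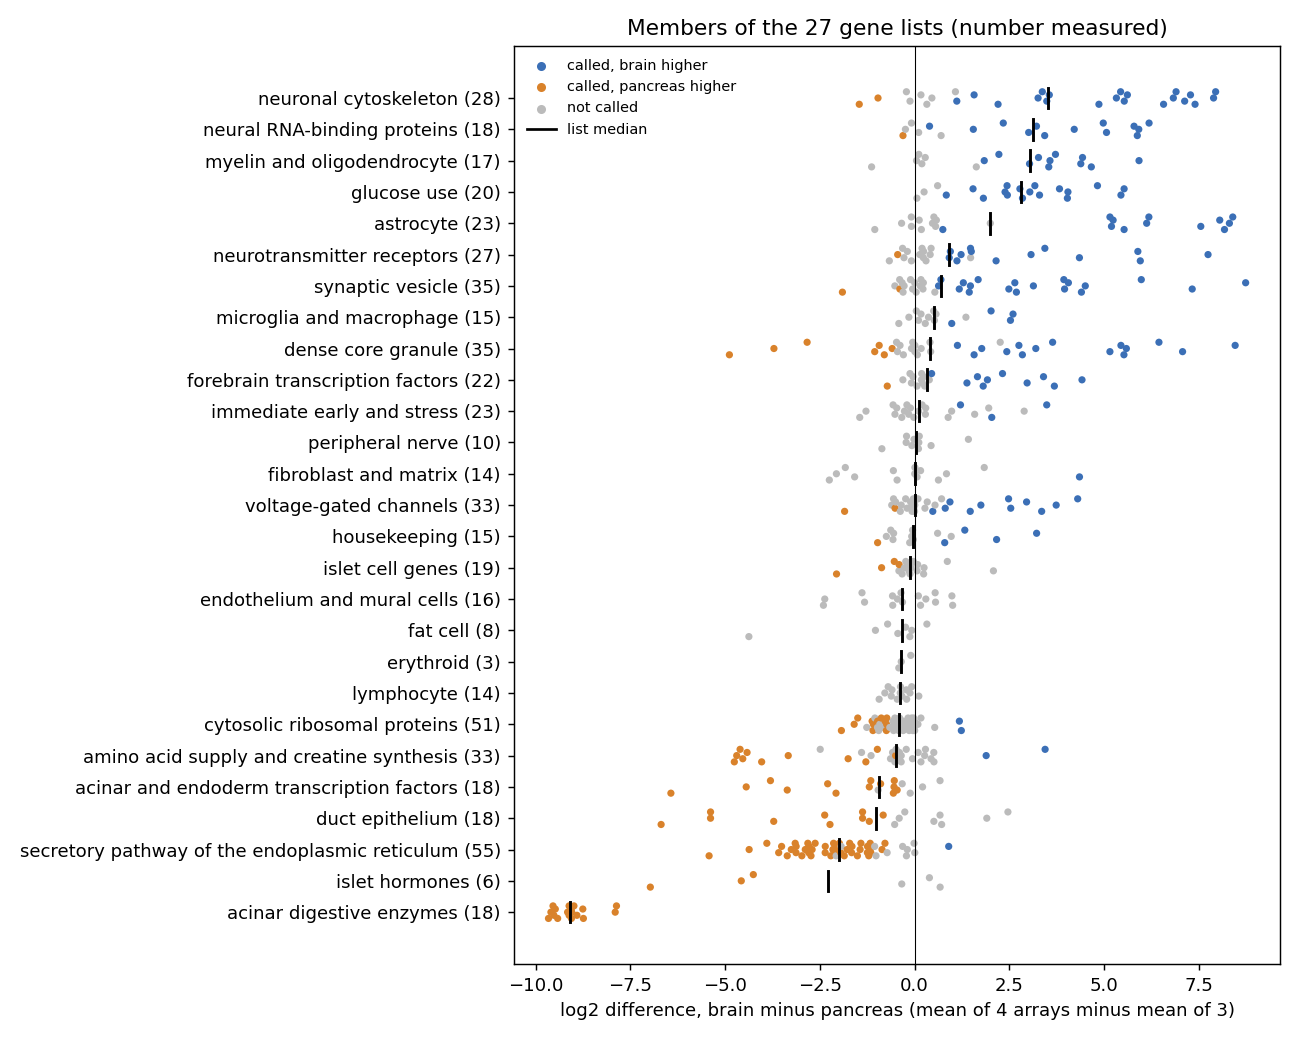
Difference between brain and pancreas (log2, brain minus pancreas) of every measured member of 27 gene lists, coloured by call at a false discovery rate of 0.001, with list medians as black bars. Acinar enzymes lie near -9, neuronal, glial and glucose use lists to the right of 0, and markers of vessel walls, lymphocytes, fat and peripheral nerve around 0.

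Brain was furthest above pancreas in neuronal and astrocyte genes. The 10 genes of the naming rule were VSNL1, GDPD2, SNAP25, UCHL1, SLC1A3, FABP7, GPM6A, CHN1, SLC1A2 and NEFL. VSNL1, a neuronal calcium sensor, was at 12.09, 11.86, 12.57 and 12.23 in brain and at 3.49, 3.28 and 3.17 in pancreas, a difference of 8.87 (SE 0.27, adjusted p = 4.5e-23). SLC1A3 and SLC1A2, the glutamate transporters by which astrocytes clear the synapse, had differences of 8.40 and 8.06. NEFL, the light chain of neurofilaments, had 7.95, with pancreas at 3.67 to 3.77.

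Genes of the neuronal cytoskeleton had the highest list median, 3.52. Of 28 members, 20 were called higher in brain and 2 in pancreas. STMN2, which frees tubulin in growing axons, had a difference of 7.89 and RTN1, a reticulon of neuroendocrine cells, of 7.40. The members called higher in pancreas were DCLK1, a doublecortin-like kinase, by 1.46, and the ankyrin ANK2, by 0.96. For each of them another probeset of the gene was called higher in brain. Without pancreas replicate 1 DCLK1 was not called (-1.0, adjusted p = 0.0031).

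Synaptic vesicle genes and receptors for glutamate and GABA were mixed lists. Of 35 vesicle genes, 19 were called higher in brain and 2 in pancreas, and 19 had a mean under 5 in both organs; the median was 0.70, and -0.14 under the housekeeping shift. SNAP91, a clathrin adaptor of vesicle recycling, had a difference of 7.33 and the fission GTPase DNM1 of 5.98. SYNGR1, a synaptogyrin found on vesicles in and outside the nervous system, was at 7.41 to 7.73 in brain and at 9.80, 8.63 and 9.95 in pancreas (difference -1.90, SE 0.27, adjusted p = 6.1e-07). The other vesicle gene called higher in pancreas, SV2C, had -0.39, and 1 gene was left on that side without brain replicate 1, 2 or 3 or pancreas replicate 3. Of 27 receptor subunits, 13 were called higher in brain and 1 in pancreas, with a median of 0.92 that was 0.56 without brain replicate 2 or 3. The fit of the 7 arrays alone called 5 of them, all higher in brain. The AMPA receptor subunit GRIA2 was at 11.47, 11.88, 11.08 and 11.80 in brain and at 3.95, 3.50 and 3.99 in pancreas, a difference of 7.75 (SE 0.14, adjusted p = 1.2e-29). GABBR2, a subunit of the metabotropic GABA receptor, had 5.96 and the kainate receptor subunit GRIK2 had 5.89. GRIN3A was called higher in pancreas by 0.44, with both means under 4, and was not called without brain replicate 1, 3 or 4 or pancreas replicate 1 or 3 (adjusted p up to 0.013).

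Voltage-gated channels were called higher in brain at 11 of 33 genes (33.3%, against 15.0% of all genes) and in pancreas at 2. The sodium channel SCN2A had a difference of 4.31 and KCNIP4, a partner of potassium channels, of 3.74. KCNA2, a potassium channel of axons, was at 4.80 to 5.11 in brain and at 6.65, 6.73 and 7.02 in pancreas by its brightest probeset (difference -1.85), while another of its 3 probesets was called higher in brain. SCN2B, a sodium channel subunit, was the other gene called higher in pancreas, by 0.51. The median of the list was 0.01, and -0.83 under the housekeeping shift, and 20 genes had a mean under 5 in both organs.

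RNA-binding proteins of neurons were called higher in brain at 13 of 18 genes and in pancreas at MSI1, by 0.30, with a median of 3.12. MSI1 was called without pancreas replicate 1 but not when any of the other 6 arrays was left out (adjusted p up to 0.0080). CELF2 had the largest difference at 6.19, and pancreas lay 3.88 below the 8 other organs for it. The neuronal ELAV proteins ELAVL2 and ELAVL4 had 5.92 and 5.88, with pancreas at the floor like the other organs. Forebrain transcription factors were called higher in brain at 10 of 22 genes and in pancreas at 1, LHX6, a call lost without pancreas replicate 1 or 3 (adjusted p up to 0.0041), with a median of 0.33 that was -0.51 under the housekeeping shift. MEF2C had a difference of 4.42, the progenitor factor SOX2 of 3.69 and the neuronal repressor MYT1L of 3.40.

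Glia contributed to the same side. Of 23 astrocyte genes, 12 were called higher in brain (52.2%, against 15.0% of all genes) and 0 in pancreas. The median was 2.0, and 7 genes had a mean under 5 in both organs. FABP7, a fatty acid binding protein of radial glia and astrocytes, reached 8.31. By their brightest probesets GFAP had 0.75, called, and AQP4 had 0.12, not called. ALDH1L1 had -1.05, NCAN -0.34 and TNR -0.09, none of them called. Of 17 myelin and oligodendrocyte genes, 11 were called higher in brain (64.7%, against 15.0% of all genes) and 0 in pancreas. The median was 3.04, and 2.39 without brain replicate 1. GJB1 had -1.13 and was not called. In the fit of the 7 arrays alone 1 of the 17 was called. GPR37, a receptor of oligodendrocytes, was at 10.86, 9.08, 9.42 and 9.39 in brain. ASPA, which breaks down N-acetylaspartate, was at 10.84, 7.89, 6.80 and 8.86, and ENPP6, a choline phosphodiesterase, at 10.30, 7.79, 5.20 and 8.40. Their pancreas values lay between 3.32 and 4.09, and ENPP6 was not called without brain replicate 1 (3.64, adjusted p = 0.0013) or pancreas replicate 2 (4.35, adjusted p = 0.0010). Brain replicate 1 was the highest array for GPR37, ASPA and ENPP6, and its list mean was 8.31 against 5.96 to 6.47 in the other brain arrays.

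Microglia and macrophage genes were called higher in brain at 4 of 15 members (26.7%, against 15.0% of all genes). The median of 0.51 was -0.33 under the housekeeping shift. The complement genes C1QB and C1QC had differences of 2.60 and 2.53, the microglial receptor P2RY12 of 2.02 and the endotoxin receptor CD14 of 0.98. P2RY12 was at 8.30 in brain replicate 1 and at 4.02 to 5.21 in the other brain arrays, and its difference was 1.12 without that array. These calls rested on few arrays: 2 genes of the list were called without brain replicate 1 or pancreas replicate 3, 1 without pancreas replicate 2 and 0 without pancreas replicate 1 or in the fit of the 7 arrays alone, with adjusted p up to 0.0051 for P2RY12 and 0.0085 for CD14. The median of the list was 0.22 without brain replicate 1. The part of tissue composition in these differences was not tested.

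**Figure D4:**
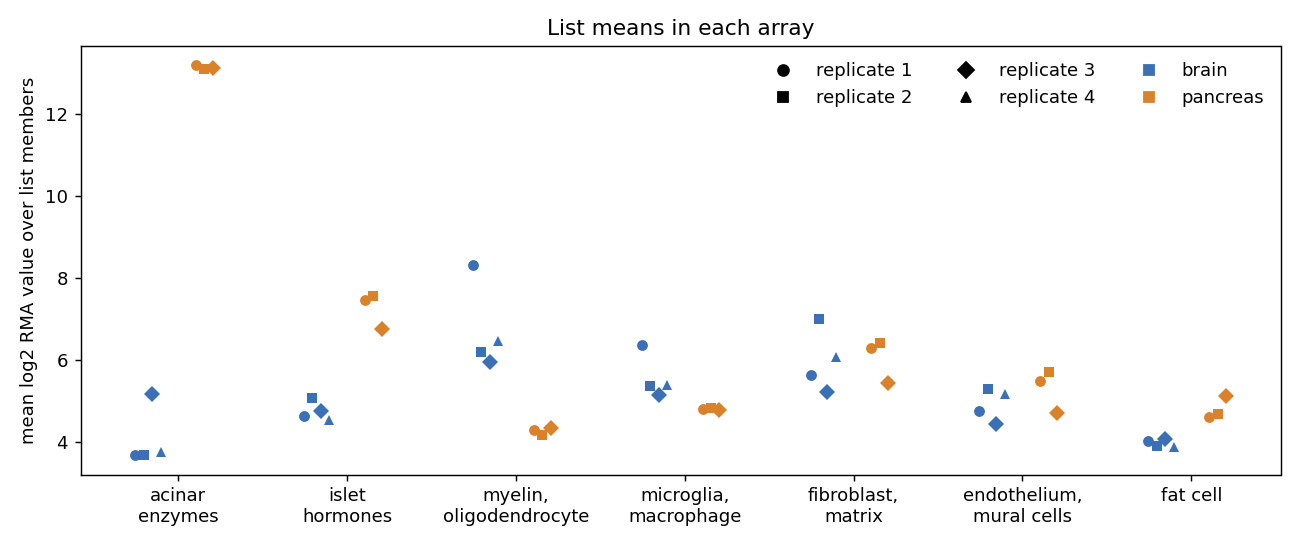
Mean log2 RMA value over the members of 7 gene lists in each brain array (blue) and pancreas array (orange), with marker shapes for the replicate numbers. Brain replicate 3 is above the other brain arrays for acinar enzymes (5.17 against 3.69 to 3.76) and brain replicate 1 for myelin (8.31 against 5.96 to 6.47). Pancreas replicate 3 is the lowest pancreas array for islet hormones, where its GCG was near the floor although its IAPP was the highest.

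Glucose use was the functional list with the largest share of calls in favour of brain, 17 of 20 genes, with a median of 2.82. ALDOC, the brain form of aldolase, was at 11.73 to 12.15 in brain and at 6.42, 6.42 and 6.17 in pancreas (difference 5.53, SE 0.33, adjusted p = 4.2e-15). ENO2, neuronal enolase, had 5.45 and PFKM, a phosphofructokinase shared with muscle, 4.83. The pancreas had a median of 1.57 below the 8 other organs on this list, while brain had a median of 0.95 above them. For PFKM pancreas was 2.30 below the others and brain 2.53 above.

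Dense core granules are used by neurons and by islet cells, and their genes split between the organs. Of 35 members, 15 were called higher in brain (42.9%, against 15.0% of all genes). Another 7 were called higher in pancreas (20.0%, against 11.3%) and 13 in neither. The median of 0.41 was 0.19 without pancreas replicate 3 and -0.43 under the housekeeping shift. Both means were under 5 for 12 of the 35 members. With dim probesets left out, 24 members remained and the median was 2.35. Of these, 14 were called higher in brain and 4 in pancreas. Brain lay at least 4-fold above the 8 other organs for 14 members and pancreas for 5.

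Among the granins and their relatives, CHGB was at 10.22, 11.51, 11.44 and 11.76 in brain and at 4.15, 4.36 and 5.83 in pancreas, a difference of 6.45 (SE 0.27, adjusted p = 2.1e-19). SCG3, which sorts granins to the granule, had a difference of 3.64 and SCG2 of 3.20. SCG5, the helper protein of prohormone convertase 2, was at 11.22 to 11.89 in brain and at 9.76, 9.45 and 9.07 in pancreas. Its difference of 2.26 was not called at this threshold (adjusted p = 0.0018), while a dimmer probeset with 2.24 was (adjusted p = 5.6e-06). CHGA differed by 0.41 (adjusted p = 0.010), with both means near 5. The granins were thus higher in brain or not called.

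The enzymes that mature peptides were mostly higher in brain. CPE, the carboxypeptidase of this pathway, was at 12.74 to 13.22 in brain and at 7.81, 7.65 and 8.17 in pancreas, a difference of 5.16 (SE 0.71, adjusted p = 4.0e-07). The convertase inhibitor PCSK1N had 5.59, and the convertases PCSK1 and PCSK2 had 2.43 and 1.77. PAM, which amidates peptides, was at 9.87 to 10.35 in brain and at 10.06, 10.22 and 9.64 in pancreas. Its difference was 0.18 with a 95% interval from -0.55 to 0.90.

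Transmitter enzymes and exocytosis factors completed the brain side. GAD1, which makes GABA, had a difference of 7.07, CADPS, which primes granules, 5.53, and UCHL1, a ubiquitin hydrolase used as a neuroendocrine marker, 8.46. ENO2, named above, is on this list too. SYT5, SYT14, CRMP1 and PTPRN had differences between 1.13 and 2.85 and were called.

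The members called higher in pancreas were led by RPH3AL, an effector of the granule GTPases RAB3 and RAB27, which was at 9.12, 9.50 and 8.87 in pancreas and at 3.99 to 4.42 in brain (difference -4.89, SE 0.31, adjusted p = 2.3e-14). ERO1B, the oxidase that helps to fold proinsulin, had -3.71 and DDC, which makes dopamine and serotonin, -2.84. PTPRN2 was called at -1.05 (not without pancreas replicate 2, at -0.88 with adjusted p = 0.0012), RAB27B at -0.93, SLC18A1 at -0.80 and SCGN at -0.59. For RAB27B, SLC18A1 and SCGN both means were under 5. SLC18A2, the vesicular monoamine transporter, had -0.08 and SYT7 0.01, neither called. CADPS2, GAD2, BAIAP3, SYT4, SYT9, SYT13, RAB3B and RAB27A were not called either, with differences between -0.48 and 0.43. Without brain replicate 1 SYT13 was called (0.61), and without pancreas replicate 2 SYT9 (-0.49), and without pancreas replicate 2 or 3 RAB3B (-0.53 and -0.54).

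Peptide genes outside that list were looked at after their values were seen. CCK, which encodes cholecystokinin, was at 11.45, 12.04, 10.67 and 11.75 in brain and at 4.16 to 4.53 in pancreas, a difference of 7.19. CRH, the corticotropin-releasing hormone, was at 5.29, 8.17, 4.32 and 6.53 in brain and VIP at 4.80, 6.57, 4.71 and 5.57, with pancreas below 3.70 for both. Brain replicate 2 was the highest brain array for all 3 genes and for SST.

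Of the 44 probesets at least 4-fold above the 8 other organs in both organs, 24 carried a symbol, of 19 genes, and 20 did not. They were 2.63% of the 1672 probesets that met the condition in brain and 9.30% of the 473 that met it in pancreas. Since measured values chose them, their distance from the other organs is given as a description. The working name of the list, shared neuronal and endocrine genes, fitted only some of the 19 genes. SST, SCG3 and SCG5 belong to peptide secretion. Another 4, GATM, PHGDH, PSAT1 and ASNS, make amino acids or the creatine precursor, and MT1E and MT2A are metallothioneins, which bind zinc and copper.

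SST stood furthest from the other organs by the smaller of the distances, at 5.45 above their mean in brain and 5.06 in pancreas. By brain alone SCG3 was among those further away, and by pancreas alone GATM and CRYM. SCG5 followed among the peptide genes, with 5.35 in brain and 3.09 in pancreas by its brighter probeset, and SCG3 with 6.13 and 2.49. DPP6, a partner of potassium channels, was 3.80 and 3.05 above the others, at 7.65, 7.25, 8.46 and 7.65 in brain and 6.71, 7.33 and 6.97 in pancreas. The next organ for DPP6 was heart at 6.67. CAMK1D, a calmodulin-dependent kinase, and GARNL3 were 4-fold higher in brain than in pancreas and stood above the others in both. Of the 5 probesets of GARNL3, 3 were called higher in brain and 1 in pancreas.

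The serine enzymes PSAT1 and PHGDH were not called different between the organs. PSAT1 was at 10.49, 10.17, 10.10 and 10.12 in brain and at 10.65, 11.12 and 10.80 in pancreas, and kidney was next at 9.87. The difference between brain and pancreas was -0.63, and the arrays of the organs did not overlap. The 95% interval, from -2.29 to 1.02, includes a 4-fold excess in pancreas but pools the spread of all organs. The SD of PSAT1 was 0.18 in brain and 0.24 in pancreas, against 2.58 in liver and 1.55 in spleen. Its other probeset in the list had a difference of -1.06, also without overlap and not called. PHGDH, the first enzyme of serine synthesis, was 2.60 above the others in brain and 2.31 in pancreas by its brightest probeset, and 2.90 and 2.45 by another. ASNS, asparagine synthetase, was 2.30 above the others in brain and 4.79 in pancreas. GATM met the condition in brain by 2.34 and in pancreas by 7.10, and kidney lay at 11.33.

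CRYM, a binding protein for thyroid hormone, was at 8.84 to 9.64 in brain, 10.10 to 10.25 in pancreas and 10.09 on average in kidney. STK39, a kinase that regulates chloride cotransporters, was at 9.17 to 10.12 in brain and 9.08 to 9.33 in pancreas, with heart at 8.67. Of the 7 probesets of STK39, 3 others were called higher in pancreas and 0 in brain. MT2A was at 11.20 to 11.93 in brain and 11.70 to 11.93 in pancreas, below liver at 12.33, and MT1E was at 10.25 to 11.82 in brain and 12.63 to 12.64 in pancreas. CDS1, which makes a phospholipid precursor, was 2.59 and 2.16 above the others although jejunum was higher, at 10.39. Of the 44, 31 had brain and pancreas both above each other organ mean, 14 of them with a symbol. SST, SCG3, SCG5, DPP6, PSAT1, STK39 and ASNS were among these.

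AQP5, a water channel of exocrine glands, was at 5.17, 7.80, 6.57 and 6.21 in brain and at 8.61, 9.12 and 5.84 in pancreas, so that its arrays spread by more than its organs differed (-1.42), and the difference was -0.79 without pancreas replicate 2 (adjusted p = 0.27) and -2.43, and called, without pancreas replicate 3 (adjusted p = 0.00012). CACNA2D3, a calcium channel subunit, was in the list by a probeset at 5.64 in brain and 7.50 in pancreas (difference -1.86), while its other 2 probesets were called higher in brain. AZIN1, a regulator of polyamine synthesis, was 2.08 and 2.16 above the others, and TMEFF1, a membrane protein of brain, 4.05 and 2.25. Of the 3 probesets of AZIN1, 2 others were called higher in pancreas and 0 in brain. Just inside the limit of 2.0 were CAMK1D with 2.05 and the dimmer probesets of CRYM with 2.05 and PSAT1 with 2.06. Just outside were TMTC4 with 1.96, SCG2 with 1.95 and SRD5A1 with 1.91.

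**Figure D5:**
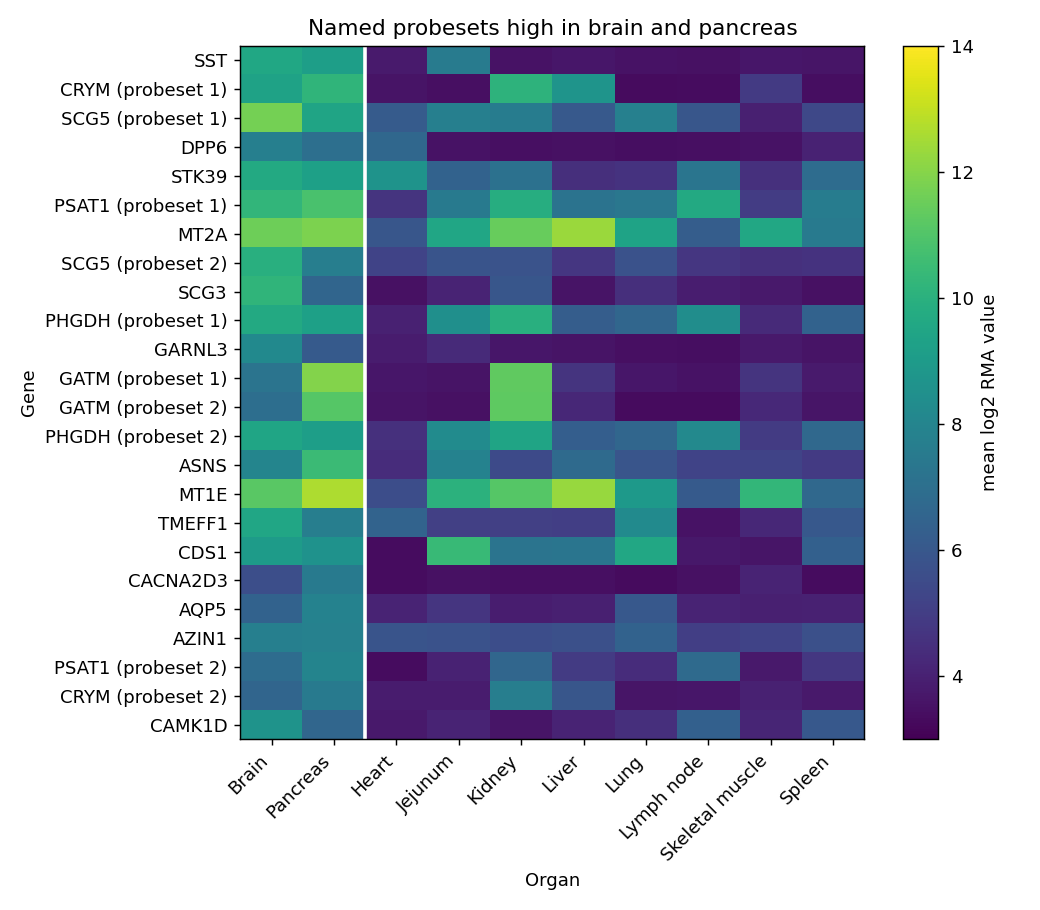
Mean log2 RMA value in the 10 organs of the 24 probesets with a symbol that were at least 4-fold above the mean of the 8 other organs in brain and pancreas; colours should be compared along a row. SST is high in brain, pancreas and jejunum, GATM, CRYM and PHGDH also in kidney, and the metallothioneins MT1E and MT2A also in liver.

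Markers of other cell types were looked at as well. None of 16 vessel wall, 14 lymphocyte, 8 fat cell, 10 peripheral nerve and 3 erythroid genes was called, with medians of -0.34, -0.37, -0.34, 0.04 and -0.35. The unadjusted p in limma was under 0.05 for 6, 3, 1, 5 and 1 of them, so that an absent call does not show that the organs were alike. All arrays of pancreas lay above those of brain for 7 of 14 lymphocyte and 5 of 8 fat cell genes, against 29.4% of all probesets. Both means were under 5 for 12 of the 14 and 6 of the 8, and the array medians were higher in pancreas too. The part of cell content in this was not tested. The list means did not overlap, at 3.76 to 3.95 in brain and 4.12 to 4.41 in pancreas for lymphocytes. For fat cells they were 3.90 to 4.08 and 4.61 to 5.13, where FABP4 had the largest difference (-4.37) and LPL the next (-1.03). Under the housekeeping shift the medians were -1.17, -1.21, -1.18, -0.79 and -1.19, and 3, 2, 1, 1 and 0 genes were called higher in pancreas. In the fit of the 7 arrays alone 1 fat cell gene was called. Without brain replicate 3, 1 vessel wall gene was called higher in pancreas. The count was 2 without pancreas replicate 3, and without pancreas replicate 2 a lymphocyte gene and a peripheral nerve gene were called. Values still spread within an organ. ACTA2, smooth muscle actin, was at 9.71, 9.59 and 5.31 in pancreas and between 3.89 and 7.47 in brain, a difference of -2.37 that was not called. It was -1.62 and -1.68 without pancreas replicate 1 or 2, -1.72 without brain replicate 3, and -3.82 and called without pancreas replicate 3 (adjusted p = 3.2e-05). FABP4, a fat cell gene, was at 5.74, 6.53 and 9.69 in pancreas and at 2.86 to 3.11 in brain, a difference of -4.37 that was not called (SE 1.26, adjusted p = 0.0048) and was -5.16 without pancreas replicate 1 and -3.19 without pancreas replicate 3. Pancreas replicate 3 was the lowest pancreas array for ACTA2 and the highest for FABP4. Of 14 fibroblast and matrix genes, SPARC was called, higher in brain by 4.35 (3.72 without pancreas replicate 3). The median was 0.01, -0.36 without brain replicate 2 and -0.83 under the housekeeping shift.

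Genes that respond to handling and stress were called higher in brain at 3 of 23 (13.0%, against 15.0% of all genes) and at 0 in the fit of the 7 arrays alone, with a median of 0.11 that was -0.73 under the housekeeping shift. The chaperone HSPH1 was at 9.47 to 11.16 in brain and at 6.18, 7.05 and 7.06 in pancreas (difference 3.49, SE 0.47, adjusted p = 2.8e-07), and its partner DNAJB1 had 2.04, a call lost without any array but brain replicate 2 (adjusted p up to 0.0038). NR4A1, an immediate early gene, was at 9.35, 9.71 and 4.66 in pancreas and at 5.50, 9.11, 5.40 and 6.50 in brain and was not called. FOS had a difference of 2.89 and was not called (adjusted p = 0.040). Of the 15 housekeeping genes, 4 were called higher in brain (26.7%, against 15.0% of all genes) and 1 in pancreas (6.67%, against 11.3%). In brain there were 2 without brain replicate 1 or 2 or pancreas replicate 2. In pancreas there were 3 without brain replicate 1. The median of the list was -0.05, and 0.05 under the shift to an equal median of all probesets. YWHAZ was at 8.44 to 9.75 in brain and 5.45, 7.20 and 5.07 in pancreas, and HPRT1 differed by 2.17, a call lost without brain replicate 1, 2 or 4 or pancreas replicate 1 or 2 (adjusted p up to 0.011).

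TTR, which encodes transthyretin, a product of the choroid plexus, liver and islets, was at 9.96, 3.69, 6.90 and 3.61 in brain and at 3.84 to 4.10 in pancreas. Its brain arrays spanned the whole range of the comparison, and it was not called (difference 2.08, adjusted p = 0.073). The difference was 0.78 without brain replicate 1, 2.86 without replicate 2 and 2.89 without replicate 4.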

How the data were processed

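RNA of 10 organs was measured on Affymetrix Canine Version 2.0 arrays. The deposited values are log2 values from Partek. There the authors ran RMA, adjusted for the GC content and sequence of the probes, normalized the 39 arrays by quantiles and summarised probes by median polish. Values ran from 2.61 to 14.7. They were used as deposited.

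A mean per organ was fitted to the 39 arrays with limma 3.58.1 in R 4.3.3, and brain minus pancreas was tested with Benjamini-Hochberg adjustment over 42860 probesets at 0.001 (29 residual and 2.01 prior degrees of freedom). The scan date, a random factor in the study's model, is not given in the sources used here. All organs came from the same dogs, but equal array numbers are not stated to be the same dog. The fit took the arrays as independent, so p-values measure only the spread between these samples, pooled within the 10 organs. Tables of the array named 29254 probesets with 1 symbol; 439 with several symbols and 13167 with none entered the fits but no list. A gene was represented by its probeset with the highest mean. Of 3735 genes with several probesets and at least 1 called, 179 had calls in both directions. Of 716 genes on 27 lists, 594 were measured, some of them on more than 1 list.

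The members and lists were chosen with earlier results of these data known. Named genes were drawn from a rule. It took the markers and the 10 genes with the largest difference in each direction among called probesets whose arrays did not overlap. It also took the 3 largest and 3 smallest differences per list, and all islet hormones and dense core granule genes. The shared set with its 3 nearest neighbours on each side of the limit was added. Not every gene of the rule is printed. SV2C, SCN2B, MSI1, LHX6, CD14, GFAP, AQP4 and others said to be so were chosen after their values were seen. MSI1 and LHX6 also met the rule. A simulation altered 67 of 42860 probesets by 2-fold, another 67 by 4-fold and 66 by 16-fold. The shares it found again were 50.7%, 83.6% and 100.0%, in that order. Far fewer probesets were altered there than the 10740 called in the real comparison. The Benjamini-Hochberg adjustment is stricter when fewer probesets differ, so these shares do not give the recovery of the real comparison. Alternatives covered the arrays fitted, replicate block, variance estimate, array weights, scaling, dim probesets, gene means, thresholds and single arrays. No genome positions are printed, since no annotation of the array's build was used here.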

Additional observations from a re-analysis of the deposited data

Results flagged for a closer look

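A set of 159 probesets was drawn by the naming rule or chosen after the values were seen. In the 4 brain arrays, 14 of them had 1 array far from the others, with a gap to its neighbour above Dixon's 95% critical value. Chance gives such a gap in about 1 of 20 groups. The array was brain replicate 3 for 10 of them, and its value was the highest each time. Of these, 7 measured 6 products of the exocrine pancreas. They were CPA1 at 5.18, CTRB2 at 5.33, CUZD1 at 4.65, PLA2G1B at 5.56, DNASE1 at 4.62 and CPB1 at 7.46 by its brightest probeset and 4.98 by the one with the largest difference. The vitamin B12 carrier CBLIF, made by the canine pancreas too, was at 3.78 in that array. CADPS2, a priming factor of secretory granules, was at 5.51 there and the neuronal hydrolase UCHL1 at 12.74.

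Brain replicate 1 stood apart for 3 genes, the complement gene C1QC at 9.22, the creatine importer SLC6A8 at 9.33 and SRD5A1, a steroid reductase, at 9.63. Without that array SRD5A1 was called higher in pancreas, by 2.09. Brain replicate 4 stood apart for SV2C, a synaptic vesicle protein, at 3.75. Groups of 3 arrays, and so pancreas, were not examined in this way.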

How the results depend on the processing

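Leaving out single arrays gave 8304 to 10123 called probesets and 42 to 48 shared ones. A robust variance estimate changed no call among the 159 named probesets. Other settings moved counts by more than 1.5 times, and the cause was not tested except where fewer arrays or probesets entered. With the 7 brain and pancreas arrays alone, 3233 probesets were called, 2306 higher in brain (1840 of them by 4-fold) and 927 in pancreas, with 87 and 67 list members, and 43 named probesets lost their call. With dim probesets left out, 7112 were called, 1966 of them higher in pancreas. A mean of at least 5 in either organ, chosen after seeing the data, left 6893 and 1877. After the housekeeping shift 5954 were called, 1869 higher in brain, with 1522 and 1892 of 4-fold in brain and pancreas, 96 list members higher in brain and 81 shared probesets. A false discovery rate of 0.05 gave 20656 calls, 8863 in brain and 11793 in pancreas, and 0.01 gave 8460 in pancreas. The shared set held 184 probesets at 2-fold, 12 at 8-fold, 27 when every array had to pass and 4 against the highest of the 8 others.

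Arrays of equal number were not treated as pairs, since it is not given that they share a dog and their deviations correlated only weakly (r = 0.0662, 0.170 and 0.0889). Brain replicate 3 was closest to pancreas replicate 1 (0.0948), and whether the numbers mark dogs is not settled. With the number as a block in the 7 arrays, 161 probesets were called, 95 in brain and 66 in pancreas, all by at least 4-fold, with 13 and 11 list members. On all 39 arrays the block gave 11333 calls. SYT7 was -0.16 and GAD2 0.028 with the block in 7 arrays.

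Some differences changed sign. After the housekeeping shift these were STK39 (-0.42), CDS1 (-0.40), PHGDH (-0.55 and -0.39), PAM (-0.66), CHGA (-0.43), NPY (-0.16), SST (-0.44), CANX (-0.83), SYT13 (-0.41), SYT7 (-0.83), SYT4 (-0.83), BAIAP3 (-0.76) and DPP6 (-0.083). As means over a gene's probesets they were STK39 (-0.31), CACNA2D3 (1.0), KCNA2 (0.91), CANX (-1.36) and ANK2 (0.22). With array weights they were SLC18A2 (0.12), AZIN1 (0.023), CANX (-0.023) and SYT4 (-0.011), and after the equal-median shift SLC18A2 (0.022), AZIN1 (0.023) and GAD2 (0.053). Without single arrays SLC18A2 ran from -0.28 to 0.056, AZIN1 from -0.29 to 0.055, CANX from -0.072 to 0.13, SYT7 from -0.16 to 0.19, SYT4 from -0.043 to 0.044 and GAD2 from -0.22 to 0.074.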
